A study of Arabidopsis thaliana with 12 samples.

Results

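In whole Arabidopsis seedlings, 24 genes stood many fold higher after the hormone abscisic acid (ABA), and their mean levels were within 1.41-fold of that when the small molecule DFPM had been given first. They were chosen from group means of log2 expression values by 3 conditions. The mean with ABA had to exceed the control mean by at least 3, the mean with DFPM alone had to lie within -1 and 1 of the control mean, and the mean with ABA and DFPM had to lie within -0.5 and 0.5 of the mean with ABA alone. On this scale 1 unit is a 2-fold difference. Candidates were probe sets that name 1 gene and reach log2 4 on at least 3 arrays, without symbols that start with UGT, ATG, VPS, ALDH, EXP or CYP. The 24 genes were drawn from 7705 named genes that passed this filter on low values. The same 3 differences were met by 47 kept probe sets in all, of which 23 carry no gene name here and are not analysed here. Every one of these values therefore served to pick the genes, and the levels and differences below are a description, not a test. The conditions name a narrow band of means. In the fit without array numbers, the 95% interval of the difference between ABA+DFPM and ABA reached beyond -0.5 or 0.5 for all 24 genes.

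The study hybridised RNA of 12-day-old seedlings of the Col-0 ecotype, raised on plates, to 12 Affymetrix ATH1 arrays, each measuring 1 RNA sample, 3 per group. The groups were a control with DMSO (dimethyl sulfoxide, the solvent) diluted 1 to 5000, ABA at 10 µM, DFPM at 30 µM, and both, with DFPM added 30 min ahead of ABA. The labels give 6 h of treatment for the 3 treated groups and no hours for the control. Array numbers 1, 2 and 3 recur in every group, and nothing in the labels says whether they came from separate cultures, so the errors below cover differences among these 12 samples alone and may be technical in part.

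ABA is the plant hormone of drought and seed maturation. It binds soluble receptors, which then hold back type 2C protein phosphatases; SnRK2 kinases are thereby freed and switch on transcription factors that bind ABA response elements in promoters. Targets in seedlings include dehydrins and other late embryogenesis abundant (LEA) proteins that protect cells as water is lost, sugar transporters, wall enzymes and parts of the signalling chain itself. DFPM is a synthetic compound that was found in a chemical screen for antagonists of ABA-induced gene expression and that activates an immune signalling pathway.

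Within a group the arrays numbered 1 and 2 correlated with r from 0.987 to 0.992 over the kept probe sets, and the array numbered 3 with either of them at 0.875 to 0.920. The 3′ minus 5′ signal of the control probe sets for actin, a measure of RNA integrity and labelling, was 1.00 to 1.18 in control and 0.85 to 0.95 with ABA in one series of probe sets, and 4.86 to 5.30 and 4.56 to 4.63 in the other. For ubiquitin the same measure separated control from ABA in 1 of the series, at 1.03 to 1.29 and 0.61 to 0.82, and overlapped in the other, and for GAPDH it overlapped in both. The part of these shifts in the ABA effects was not tested. Of 15 markers of root, guard cell, mesophyll and seed, 5 were measured, and limma called none of them changed by ABA; the root gene EXP18 changed by -1.17 on the log2 scale between DFPM and control (adjusted p = 0.0348, limma) and by -1.29 between ABA+DFPM and ABA (adjusted p = 0.0374). The mesophyll markers LHCB4.1 and RCA read 12.69 to 13.55 and 13.18 to 13.41 in the control arrays. They read 9.68 to 12.70 and 9.35 to 12.36 with DFPM alone, and 10.04 to 12.48 and 8.34 to 11.72 with ABA and DFPM. Neither was called in the comparisons fitted, and ABA+DFPM was not tested against control. The seedlings were measured whole, so fewer cells of a type and less RNA per cell cannot be told apart.

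Among the 24 genes the ABA effect, the mean with ABA minus the mean of the controls, ran from 3.13 to 6.39 with a median of 4.13, where the median over all kept probe sets was -0.09. The smallest, for AT5G14130, is a fold change of 8.77. The mean in control lay under log2 4 for 12 of the genes, near the bottom of the scale, which starts at 2.14. No fold is given for these, since their control level may not be above background. With ABA no member lay under 4 on any array, and the lowest single value was 5.30. The ABA arrays lay above all control arrays for 24 of 24 genes, a pattern found for 21.1% of all kept probe sets, and the smallest gap between the groups was 1.06. limma called all 24 higher with ABA, against 14.6% of kept probe sets. Nothing is read from these counts, since the ABA effect was one of the conditions.

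**Figure D1:**
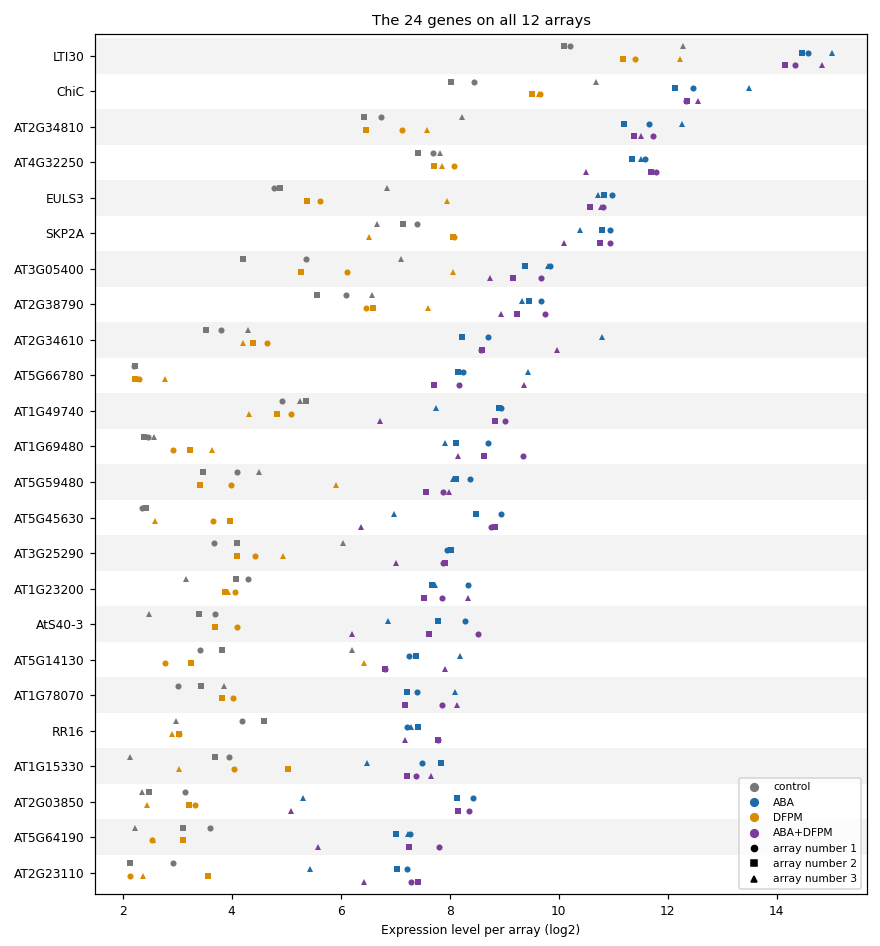
Expression level (log2, horizontal axis) of each of the 24 genes on every array, ordered by mean level with ABA. Colours give the group and symbols the array number. On each gene's line the 3 ABA points lie to the right of the control points and the 3 ABA+DFPM points to the right of the DFPM points.

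With DFPM alone the members lay within the band that chose them, from -0.93 for RR16 to 1.00 for AT5G45630. Within the band 18 genes lay above 0 and 6 below, and the median was 0.43, beside -0.08 over all kept probe sets. The control mean lay under log2 4 for 12 of the 24 genes and the DFPM mean for 10, near the bottom of the scale. A fall with DFPM can hardly show at such levels, which limits the counts of genes lowered. limma called 0 of the 24 changed by DFPM, where it called 12.7% of kept probe sets higher and 11.4% lower. At an unadjusted p under 0.05 it gave 3, AT1G69480 and AT2G38790 higher and RR16 lower, against 37.7% of kept probe sets. With the array number as a block that count was 5, with AT5G45630 and LTI30 added, against 54.8%. In that fit 1 gene passed after adjustment, RR16, again lower, where 20.9% of kept probe sets were called higher and 26.5% lower. On arrays numbered 1 and 2 alone, which called 49.6% of kept probe sets, 10 passed: AT5G45630, AT2G34610, EULS3, AT1G78070, LTI30, ChiC, SKP2A, AT2G38790, RR16 and AT5G14130. Leaving out only the control array numbered 3 gave 3, LTI30, ChiC and RR16, with 23.4% of kept probe sets called. The DFPM arrays lay wholly above the control arrays for AT1G69480 and AT5G45630, 2 of 24 genes against 21.1% of kept probe sets. They lay wholly below for 0 of 24, against 23.2%. The rule bounds the DFPM effect, so nothing is read from these counts.

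With both compounds the levels stood near those with ABA alone, as the rule required, from -0.48 for AT3G05400 to 0.48 for AT2G23110 with a median of -0.17. The median over all kept probe sets was -0.09, and 19 of the 24 differences were negative. limma called 0 of 24 different between ABA+DFPM and ABA, where it called 6.64% of kept probe sets higher and 5.96% lower. At an unadjusted p under 0.05 it gave 0 of 24, against 27.4% of kept probe sets. With the array number as a block it also called 0, beside 31.2% of kept probe sets in either direction, and 0 unadjusted, beside 43.8%. The 3 arrays with both compounds lay below all 3 ABA arrays for AT5G59480 and AT3G25290, 2 of 24 against 18.8% of kept probe sets. They lay above for 0 of 24, against 16.9%. The rule bounds this difference too, so nothing is read from the counts of calls and of groups that do not overlap. The error of each difference is wide beside the band. The 95% interval reached 0.69 to 2.13 to either side, median 1.19, and lay inside -1 and 1 for 4 genes, AT1G78070, AT1G23200, AT4G32250 and AT2G38790. With the array number as a block the median reach was 0.92 and the interval lay inside -1 and 1 for 10 genes. For the other 14 genes the interval with the block reached a difference of 2-fold or more. Each fit shares 1 spread over all 4 groups, so arrays outside this comparison can widen or narrow an interval. For EULS3 the SD was 1.17 in control and 1.42 with DFPM, but 0.12 with ABA and 0.13 with both. For AT4G32250 it was 0.72 with both and 0.12 to 0.21 in the other groups.

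Set against DFPM alone, ABA+DFPM was higher on every array for 24 of 24 genes, a pattern of 15.6% of kept probe sets. The difference ran from 2.42 for AT2G38790 to 5.98 for AT5G66780, median 3.73, and limma called 23 of the 24, against 8.04% of kept probe sets higher; AT5G14130 did not pass. With the block all 24 did, against 16.2% of kept probe sets. This contrast follows from the 3 used by the rule, as the ABA effect plus the difference between ABA+DFPM and ABA minus the DFPM effect, and is no separate evidence, and the comparisons share the control, ABA or DFPM arrays. Expressed as a share, the ABA effect in the presence of DFPM was 65.9% (AT3G05400) to 136% (RR16) of the effect in its absence on the log2 scale, median 90.3%. It was under 80% for 4 genes, AT3G05400, LTI30, ChiC and AT2G38790, from 80% to 100% for 17 and over 100% for AT2G23110, RR16 and AT1G49740. The DFPM effect of the 4 genes under 80% was 0.54 to 0.92. The difference between the ABA effects with and without DFPM, an interaction, ran from -1.40 to 1.21, and limma called 0 of 24, against 0.375% of kept probe sets, and 0 with the block, against 1.4%. On arrays numbered 1 and 2 alone it called 5, AT5G45630, EULS3, LTI30, ChiC and RR16, against 8.69%. At an unadjusted p under 0.05 it gave 1, RR16, with and without the block, where 13.6% and 6.5% of kept probe sets passed. The interaction is the difference between ABA+DFPM and ABA minus the DFPM effect. The rule bounds both of these, and with them the share, so nothing is read from the interaction counts or the shares.

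**Figure D2:**
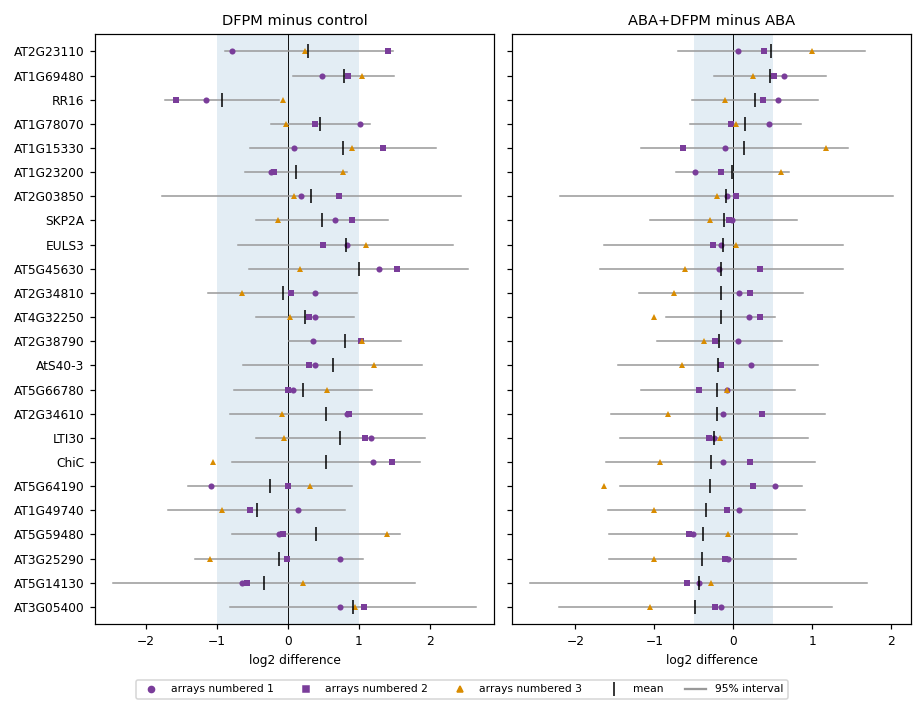
Log2 differences between DFPM and control (left) and between ABA+DFPM and ABA (right) for the 24 genes, one line per gene, with shaded bands marking the limits of the rule (-1 to 1 and -0.5 to 0.5). Points are differences between arrays of the same number, black ticks their means and grey lines 95% intervals from limma without the array number as a block. On the right every grey line leaves the band.

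The protective proteins among the members were LTI30, AT2G03850 and AT2G23110. LTI30 (AT3G50970), a dehydrin that binds membranes and accumulates in cold and drought, read 10.21, 10.09 and 12.29 in the controls, 14.57, 14.47 and 15.01 with ABA, 11.40, 11.18 and 12.23 with DFPM, and 14.33, 14.16 and 14.84 with both, in the order of the array numbers. All 6 arrays with ABA lay above all 6 without it, and the arrays numbered 3 were the highest of each group. The ABA effect was 3.82 ± 0.53 (SE, n = 3 arrays a group, as in all SEs below). The difference between ABA+DFPM and ABA was -0.24 ± 0.53, with -0.24, -0.31 and -0.17 by array number. Each SE comes from limma without the block, with 1 spread shared by all 4 groups. It is therefore the same for these differences, though the SD of LTI30 was 1.24 in control, 0.29 with ABA, 0.56 with DFPM and 0.35 with both.

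AT2G03850 and AT2G23110, both LEA family genes on chromosome 2, rose from means of 2.66 and 2.40 in control to 7.28 and 6.56 with ABA. AT2G03850 read 3.14, 2.49 and 2.36 in control, 8.42, 8.13 and 5.30 with ABA, 3.32, 3.22 and 2.45 with DFPM, and 8.35, 8.16 and 5.09 with both. Its arrays numbered 3 stood far under the others both with ABA and with both compounds. The difference between these groups was -0.08, 0.03 and -0.21 by number, and its interval ran from -2.19 to 2.02. AT2G23110 read 2.92, 2.14 and 2.14 in control, 7.22, 7.03 and 5.43 with ABA, 2.14, 3.56 and 2.37 with DFPM and 7.29, 7.42 and 6.42 with both. Its difference of 0.48 ± 0.53, the highest of the set, was made of 0.06, 0.39 and 1.00 by number.

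The other LEA and dehydrin genes show what surrounds these 3. Of 51 LEA and dehydrin loci listed, 20 were measured under a name, and 17 of them were not members. Among those 17, ABA raised 12 by limma's adjusted p and lowered 0, and their median ABA effect was 2.97, where 14.6% of kept probe sets rose. With the array number as a block 13 rose and 1 fell, where 22.1% and 26.4% of kept probe sets did. Comparing ABA+DFPM with ABA, 8 of the 17 fell and 0 rose, with a median of -1.07, where 5.96% of kept probe sets fell. With the block 10 fell and 1 rose, where 31.2% of kept probe sets changed in either direction. Without the block 9 of the 17 were not called, and the genes named below are taken from the 8 that fell. The 3 members, chosen for little change in this comparison, are outside these counts. DFPM alone lowered 3 of the 17, beside 11.4% of kept probe sets, and with the block 4 fell and 1 rose, beside 26.5% and 20.9%. The LEA gene AT3G17520 went from 11.55 ± 0.20 (SD, n = 3) with ABA to 9.11 ± 0.45 with both, a difference of -2.44 ± 0.23 (SE, adjusted p = 1.76e-04, limma). COR15A, which protects chloroplast membranes in the cold, changed by -3.24 ± 0.36 (adjusted p = 5.42e-04, limma), and AT3G02480, with the largest ABA effect of the list at 11.42, by -1.18 ± 0.18 (adjusted p = 0.00302). LEA4-5 also changed by -1.18 ± 0.29 (adjusted p = 0.0266, limma), a call lost without the ABA array numbered 1 or 3 or the ABA+DFPM array numbered 2, and with only the groups compared in the fit. Without all arrays numbered 1 the calls of COR15A, AT3G02480 and LEA4-5 were lost, at -3.37, -1.15 and -1.24, and without those numbered 2 those of AT3G02480 and LEA4-5, at -1.24 and -1.25. The list was chosen with earlier results of these arrays known, so its counts are a description.

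A list of 12 proline, osmolyte and dehydration marker genes held 7 measured loci, of which AT5G66780 is a member. The other 6 all rose with ABA by limma's adjusted p, with a median effect of 7.53, where 14.6% of kept probe sets rose. This list too was chosen with earlier results of these arrays known, so its counts are a description. Between ABA and ABA+DFPM 2 of the 6 fell, where 5.96% of kept probe sets fell. They were SAG29 with a difference of -2.57 ± 0.51 (adjusted p = 0.0109, limma) and AT2G37870 with one of -3.21 ± 0.48 (adjusted p = 0.00254, limma). The call of SAG29 was lost with only the groups compared in the fit. Without all arrays numbered 1, or all numbered 2, neither passed, at -3.10 and -3.03 for SAG29 and -3.24 and -2.81 for AT2G37870. With the block 5 fell, beside 31.2% of kept probe sets changed in either direction, AT1G16850 and AT2G41190 among them. Their differences were -2.06 ± 0.70 (adjusted p = 0.0846, limma, and 4.72e-04 with the block) and -1.29 ± 0.47 (adjusted p = 0.106, limma, and 0.012 with the block). AT5G66780, to which no role is assigned here, had the largest ABA effect of the 24, counted from control values at the bottom of the scale. It read 2.21, 2.22 and 2.22 in control, 8.24, 8.15 and 9.44 with ABA, 2.29, 2.22 and 2.78 with DFPM and 8.17, 7.71 and 9.36 with both. All arrays with ABA lay far above those without, and the difference between ABA+DFPM and ABA was -0.08, -0.44 and -0.08 by array number.

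Genes for signalling and regulation numbered 6. AT4G32250, a protein kinase of the chloroplast outer envelope, had the narrowest spread within groups of all 24, a pooled SD of 0.39. It read 7.69, 7.42 and 7.82 in control, 11.58, 11.35 and 11.51 with ABA, 8.08, 7.71 and 7.85 with DFPM, and 11.79, 11.69 and 10.50 with both. On arrays numbered 1 and 2 it was slightly higher with both compounds than with ABA, and on those numbered 3 the difference was -1.01. SKP2A (AT1G21410), an F-box protein that selects cell cycle factors for breakdown, read 7.40, 7.15 and 6.67 in control, 10.94, 10.80 and 10.39 with ABA, 8.07, 8.06 and 6.52 with DFPM and 10.94, 10.75 and 10.10 with both. Its levels with and without DFPM overlapped when ABA was present, and the 3 differences were -0.01, -0.05 and -0.29.

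RR16 (AT2G40670), a type-A response regulator that damps cytokinin signalling, was the member with the lowest DFPM effect. It read 4.19, 4.60 and 2.97 in control and 3.04, 3.03 and 2.90 with DFPM. With ABA it read 7.21, 7.41 and 7.29, and with both 7.78, 7.79 and 7.18. The difference between DFPM and control was -1.15, -1.57 and -0.07 by number, and the control array numbered 3 already stood at the DFPM level. Its ABA effect was 3.38 ± 0.36 without DFPM and 4.59 with it.

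AtS40-3 (AT4G18980), of the S40 family linked to leaf senescence, read 8.29, 7.78 and 6.86 with ABA and 8.52, 7.62 and 6.21 with both. Its array numbered 3 was the lowest of either group. It had an ABA effect of 4.45 ± 0.57 and a difference of -0.19 ± 0.57 between ABA+DFPM and ABA. AT1G78070, a WD40-repeat protein, read 7.40, 7.22 and 8.09 with ABA and 7.86, 7.18 and 8.13 with both, a difference of 0.15 ± 0.32 that lay between -0.03 and 0.45 in each number. AT1G15330, a CBS-domain protein, had differences of -0.11, -0.64 and 1.17 by number, which average to 0.14 and go both ways. Of the 6 signalling genes, AT1G78070 and SKP2A stayed within -0.5 and 0.5 in every number.

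The transport genes were AT1G69480 and AT3G05400, and they lay near opposite ends of the band. AT1G69480, an EXS-domain protein of the PHO1 family, to which phosphate exporters belong, read 2.46, 2.39 and 2.58 in control, 8.70, 8.12 and 7.91 with ABA, 2.93, 3.23 and 3.63 with DFPM and 9.34, 8.63 and 8.16 with both. Its DFPM arrays all lay above the controls and its level with both compounds exceeded that with ABA in each number, by 0.64, 0.51 and 0.25. AT3G05400, a sugar transporter of the ERD6-like family, read 5.37, 4.20 and 7.11 in control, 9.84, 9.39 and 9.80 with ABA, 6.12, 5.27 and 8.06 with DFPM and 9.68, 9.16 and 8.74 with both. Its DFPM effect was 0.92 and its difference between ABA+DFPM and ABA -0.48, close to both limits. Its control arrays spread from 4.20 to 7.11 and its DFPM arrays from 5.27 to 8.06.

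Wall, lectin and secreted enzymes numbered 5. EULS3 (AT2G39050), a nucleocytoplasmic lectin of the Euonymus type, read 4.77, 4.88 and 6.85 in control, 10.98, 10.84 and 10.73 with ABA, 5.62, 5.38 and 7.95 with DFPM and 10.82, 10.58 and 10.77 with both. Without ABA the array numbered 3 stood well above the others in both groups, and with ABA, with or without DFPM, all 6 arrays lay from 10.58 to 10.98. ChiC (AT4G19810), a class V chitinase that cuts chitin, read 8.45, 8.03 and 10.69 in control, 12.46, 12.14 and 13.49 with ABA, 9.65, 9.51 and 9.63 with DFPM and 12.34, 12.35 and 12.56 with both. DFPM alone was higher than control in numbers 1 and 2 and lower in number 3, where the control was high. AT2G34810, a flavin oxidoreductase of the berberine bridge enzyme family, read 6.74, 6.42 and 8.23 in control, 11.66, 11.19 and 12.26 with ABA, 7.13, 6.47 and 7.58 with DFPM and 11.73, 11.39 and 11.51 with both. Its ABA effect was 4.57 ± 0.47, and control and DFPM arrays overlapped, as did ABA and ABA+DFPM arrays.

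AT1G23200, a pectin methylesterase that trims pectin in the cell wall, had the difference closest to 0, -0.01 ± 0.32. It read 8.33, 7.68 and 7.73 with ABA and 7.85, 7.53 and 8.33 with both, so the mean near 0 was made of differences of -0.48, -0.15 and 0.60. AT5G14130, a class III peroxidase, was the gene nearest the limit of the ABA condition, at 3.13 ± 0.96. It read 3.41, 3.83 and 6.20 in control and 2.77, 3.26 and 6.42 with DFPM, 7.26, 7.39 and 8.19 with ABA and 6.82, 6.81 and 7.91 with both. The array numbered 3 was the highest of each group, and the gene had the widest spread of the set, a pooled SD of 1.31.

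The remaining members are described by their ranges. AT5G59480, a hydrolase of the haloacid dehalogenase type, AT3G25290, a membrane protein with cytochrome b561 and DOMON domains, and AT1G49740, a phosphodiesterase of the phospholipase C type, had ABA effects of 4.15, 3.39 and 3.35, and all had lower means with both compounds than with ABA, with differences of -0.38, -0.39 and -0.34. AT5G59480 read 8.38, 8.11 and 8.06 with ABA and 7.87, 7.56 and 7.99 with both, so the groups did not overlap, by the margin between 8.06 and 7.99. AT3G25290 read 7.95, 8.03 and 8.03 with ABA and 7.88, 7.92 and 7.02 with both, again without overlap, and the array numbered 3 stood apart. AT5G45630, AT2G34610, AT5G64190 and AT2G38790, to which no role is assigned here, had ABA effects of 5.73, 5.37, 4.19 and 3.40. AT5G45630 read 2.35, 2.42 and 2.42 in control and 3.65, 3.96 and 2.59 with DFPM, above control on each array. Its array numbered 3 read 6.98 with ABA and 6.37 with both, under the 8.49 to 8.94 of the other ABA arrays. AT2G34610 went the other way, with 10.80 on the ABA array numbered 3 beside 8.70 and 8.23. AT5G64190 read 7.27, 7.01 and 7.23 with ABA but 7.80, 7.26 and 5.59 with both, with differences of 0.53, 0.25 and -1.64 by number. AT2G38790 read 9.68, 9.46 and 9.32 with ABA and 9.74, 9.23 and 8.95 with both, beside 6.10, 5.56 and 6.58 in control and 6.46, 6.59 and 7.61 with DFPM, which was above the control of the same number each time.

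The members varied more between arrays of a group than most genes. The median pooled SD within groups was 0.72, beside 0.40 over all kept probe sets and 0.62 over 50 genes that met the same ABA and DFPM conditions but fell by 1.5 or more between ABA and ABA+DFPM. Arrays numbered 1 and 2 differed by a median size of 0.19 to 0.36 per group over the members. The array numbered 3 differed from their mean by 0.88 in control, 0.64 with ABA, 0.66 with DFPM and 0.78 with both, against 0.51, 0.42, 0.50 and 0.54 over all kept probe sets. In control it lay above both others for 13 genes and below both for 7, and with both compounds above for 9 and below for 13. The median ABA effect was 4.29, 4.27 and 3.81 in numbers 1, 2 and 3, and the median difference between ABA+DFPM and ABA was -0.07, -0.07 and -0.29.

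By array number, 15 of the 24 genes had an ABA effect of at least 3 each time, 9 a DFPM effect within -1 and 1 each time and 7 a difference between ABA+DFPM and ABA within -0.5 and 0.5 each time. Those 7 were AT5G66780, EULS3, AT2G03850, AT1G78070, LTI30, SKP2A and AT2G38790. The last difference lay within -1 and 1 in all numbers for 18 genes, all but AT5G64190, AT3G05400, AT1G15330, AT4G32250, AT3G25290 and AT1G49740. Its sign was mixed for 15 genes, negative throughout for 7 and positive throughout for AT1G69480 and AT2G23110.

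To read the same measure in arrays that played no part in the choice, the conditions were applied to 8 arrays of a pair of numbers and the chosen genes were read in the 4 arrays of the remaining number. Without number 1 the conditions chose 18 genes, 16 of them among the 24. In the arrays numbered 1 their median difference between ABA+DFPM and ABA was -0.10, 14 lay within -0.5 and 0.5, and all 18 kept an ABA effect of at least 3. Without number 2 they chose 24 genes, 17 of them shared, with a median of -0.15 in the arrays left out, 18 within the band and 21 with an ABA effect of at least 3. Without number 3 they chose 37 genes, 17 of them shared. In the arrays numbered 3 these had a median of -0.72, 13 lay within the band, 22 kept an ABA effect of at least 3, and 4 differed by -1.5 or lower, although all 37 had an ABA effect above 0. The DFPM effect in the arrays left out lay within -1 and 1 for 12 of the 18, 18 of the 24 and 24 of the 37 genes. It ran from -1.15 to 1.44 in the arrays numbered 1, from -1.57 to 1.79 in those numbered 2 and from -4.64 to 3.79 in those numbered 3.

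**Figure D3:**
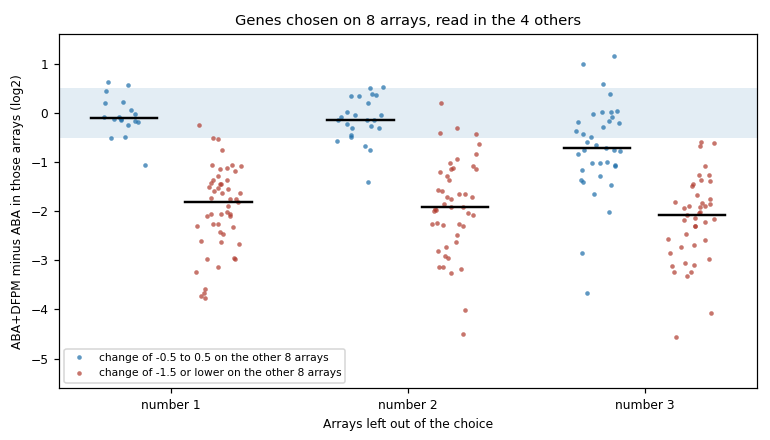
Difference between ABA+DFPM and ABA (log2, vertical axis) in the 4 arrays of one number, for genes chosen on the other 8 arrays, with lines at the medians. Blue points are genes chosen for a difference from -0.5 to 0.5 (18, 24 and 37 genes, medians -0.10, -0.15 and -0.72), and red points genes chosen for -1.5 or lower (51, 47 and 43 genes, medians -1.82, -1.91 and -2.08).

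Genes chosen the same way for a fall of 1.5 or more served as the contrast. In the arrays left out, 51, 47 and 43 such genes had medians of -1.82, -1.91 and -2.08, and 1, 4 and 0 of them lay within -0.5 and 0.5. With 1 array a group in each reading there is no test. The conditions chose 10 genes every time: AT1G23200, AT1G78070, AT2G03850, AT2G34610, AT2G34810, AT4G32250, AT5G66780, AtS40-3, EULS3 and SKP2A. The other 14 members, among them AT1G69480, AT5G45630, AT5G64190 and AT2G23110, were missed at least once, and 25 genes outside the 24 were chosen at least once. AT5G14130 was missed every time, and AT5G64190, AT2G23110, AT3G05400, AT1G15330, AT3G25290 and ChiC were chosen only once.

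Among strongly ABA-raised genes with little DFPM effect the members held the top of the range. Of 192 named genes with an ABA effect of at least 3, 131 had a DFPM effect within -1 and 1. Of these, 24 met the third condition, 107 lay lower and 0 lay above 0.5. Between -1.5 and -0.5 there were 57, and 50 at -1.5 or lower. The median over all 192 was -0.97. The median ABA effect was 4.13 over the members and 4.84 over the 50 genes with the largest falls, a description of sets chosen on the same values.

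**Figure D4:**
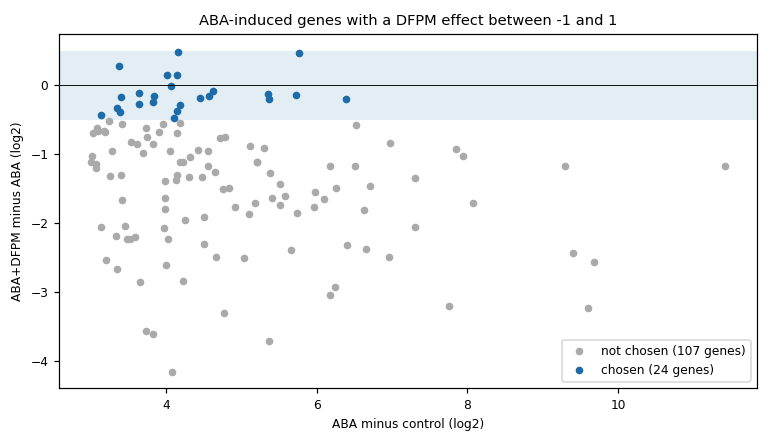
ABA effect (ABA minus control, log2, horizontal axis) and difference between ABA+DFPM and ABA (log2, vertical axis) for the 131 genes with an ABA effect of at least 3 and a DFPM effect within -1 and 1. The 24 members (blue) lie in the shaded band, 107 genes (grey) lie below it and 0 above.

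At the limits the nearest genes differed little. The ABA effects just inside were 3.13 for AT5G14130 and 3.35 for AT1G49740, and just outside 2.99 for AT2G16890 and 2.98 for AT5G50170. At the upper DFPM limit AT5G45630 at 1.00 and AT3G05400 at 0.92 were in, and AR791 at 1.13 and AT4G33040 at 1.15 were out. At the lower one RR16 at -0.93 and AT1G49740 at -0.44 were in and AT5G39520 at -1.25 was out. For the difference between ABA+DFPM and ABA, AT3G05400 at -0.48 and AT5G14130 at -0.44 were in and AT1G62660 at -0.52 and AT4G35690 at -0.55 out. At the upper limit AT2G23110 at 0.48 and AT1G69480 at 0.47 were in, and no gene lay outside.

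In the genome the members lay on all 5 chromosomes, with 6, 7, 3, 3 and 5 genes on chromosomes 1 to 5. Chromosome 2 held 29.2% of them and 14.7% of the named genes that passed the filter. No pair were neighbours: the closest in gene order, AT2G34610 and AT2G34810, had 18 protein-coding genes between them, EULS3 and AT2G38790 had 24, and AtS40-3 and ChiC 86. Each member was measured by 1 kept probe set.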

How the data were processed

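RNA of 12 seedling samples was hybridised to ATH1 arrays. The authors deposited 1 log2 expression value per probe set and array. GCRMA and affy are the tools that the submitters' processing notes name; the sources used here give no versions of them. They ran from 2.14 to 15.6 and were used as deposited. The table held 22810 probe sets, 64 of them controls that were left out. Of the other 22746, 13513 named 1 gene, 503 several and 8730 none here, by the given platform table and RefSeq names. Probe sets with log2 of at least 4 on at least 3 arrays were kept (14401).

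The members and gene lists were chosen with earlier results of these data known. limma 3.58.1 (R 4.3.3) fitted all 12 arrays with 1 residual variance per probe set, two-sided, with Benjamini-Hochberg adjustment over all kept probe sets and an adjusted p under 0.05 as the threshold. Adjusted p-values named for limma come from that fit. That fit was also run on simulated data, drawn independently for each array around the control means. Such data hold no deviations shared by arrays of the same number, so the simulation does not cover them. Python 3.11.15, pandas 2.3.3, numpy 2.4.6 and matplotlib 3.10.9 made tables and figures. Members were named by ABA effect, level, symbol, lists and closeness to a limit, and list genes by ABA effect, up to 4 of those called per list; the other members were named after their values were seen. Alternatives were a block for the array number, other filters, scalings and left-out arrays. Deviations from the group means correlated in all 18 pairs of arrays with the same number (r 0.426 to 0.802), which by the rule used here pairs arrays by number, though the labels do not say what a number means. At most 0.649% of values of log2 4 or more were identical between any pair of arrays. Array number limits the precision. The fit without the block does not use this pairing. Its 95% intervals of the difference between ABA+DFPM and ABA reached a median of 1.19 to either side over the members, and 0.92 with the block. Of 10 lists, the lipid transfer list held 1 measured gene, AT5G01870, not called in any comparison without the block, and the heat shock list 1, ATHSP22.0 (ABA effect 5.37, and -3.71 between ABA+DFPM and ABA). The lists of oleosins and caleosins, raffinose family sugars, ABA kinases and transcription factors, ABA receptors, PP2C phosphatases, and ABA synthesis and transport held 0 and are not analysed here. Roles of genes are general knowledge.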

Additional observations from a re-analysis of the deposited data

Results flagged for a closer look

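For AT3G17520, an LEA gene outside the 24, the ABA effect with DFPM was smaller than the effect without it by a difference of -2.55 ± 0.32 on the log2 scale (SE, n = 3 arrays a group). This difference between the groups was itself tested as an interaction term (adjusted p = 0.00706, limma; 0.00676 with the array number as a block), which limma called for 54 of the kept probe sets, 0.375%.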

How the results depend on the processing

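The choice of the 24 genes kept 24 with no filter on low values, with a limit of log2 5, or with probe sets of several genes counted as well. With each array centred on its median it gave 23 genes (22 shared), and with quantile normalization added 25 (22 shared). Leaving out 1 array or 1 number gave 18 to 37 genes, the highest without number 3. The median ABA effect was 3.93 to 4.24 in those settings, the median DFPM effect 0.23 to 0.51, the median difference between ABA+DFPM and ABA -0.25 to -0.01 and that between ABA+DFPM and DFPM 3.50 to 4.01. With the array number as a block, the members passing DFPM against control went from 0 to 1, and over single left-out arrays from 0 to 3. Without all arrays numbered 3 the count was 10, where 49.6% of kept probe sets were called. For the LEA and dehydration lists together the block gave 6 calls for DFPM against control (3 without it) and 16 for ABA+DFPM against ABA (10 without it). Probe sets called went with the block from 4165 to 6982 for ABA, from 3463 to 6821 for DFPM, from 1814 to 4486 for ABA+DFPM against ABA and from 2049 to 5069 against DFPM. Over left-out arrays and numbers they ran from 710 to 8364, 76 to 7146, 70 to 5276 and 139 to 7364. With only the groups compared in the fit, DFPM against control gave 2250 and ABA+DFPM against DFPM 862. The cause of these shifts was not tested. Leaving out number 1, 2 or 3 left the same number of arrays and gave 710, 725 and 8364 probe sets for ABA. For DFPM it gave 340, 76 and 7146. Over the 25 measured list genes outside the 24, the block added 2 calls for ABA against control, 4 for DFPM against control, 7 for ABA+DFPM against ABA and 6 for ABA+DFPM against DFPM, and 0 were lost. The planned promoter motifs and protein features were not run, since no sequence was used here.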
